A study of Homo sapiens with 36 samples.

Results

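The proteasome is assembled from subunits encoded by the PSMA, PSMB, PSMC and PSMD genes, and their transcripts were followed in HMC3 cells, an established human microglial line, while the cells were exposed to the surfactant perfluorooctane sulfonate (PFOS), a long-lived fluorinated pollutant, and after it was withdrawn. Members were all rows of the count table whose symbol is PSMA, PSMB, PSMC or PSMD followed by a number, without the inducible subunits PSMB8, PSMB9 and PSMB10. This gave 36 of the 25344 symbols: 8 PSMA, 8 PSMB, 6 PSMC and 14 PSMD genes. Exposure lasted 24 h, to vehicle or to PFOS at 25 or 50 µM, and cells were either collected then or kept for a further 24 h without PFOS (recovery), which gives 6 groups of 3 RNA-seq libraries. All groups are the same line, with no genetic change named. The labels call the 3 libraries of a group biological replicates and do not say how the cultures were kept apart, so the spread behind the p-values is that of these libraries.

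The 26S proteasome degrades proteins that carry ubiquitin chains. Its 20S core is a barrel of outer rings of alpha subunits (PSMA genes), which gate the channel, and inner rings of beta subunits (PSMB genes), of which PSMB5, PSMB6 and PSMB7 carry the chymotrypsin-like, caspase-like and trypsin-like active sites. The 19S cap binds, deubiquitinates and unfolds substrates, using a ring of ATPases (PSMC genes) and non-ATPase subunits of the base and lid (most PSMD genes). When proteasome activity is short, the transcription factor NFE2L1 raises transcription of many subunit genes together through antioxidant response elements, and its relative NFE2L2 acts on the same element under oxidative stress.

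Promoter sequence was therefore examined for the core of that element, TGACNNNGC on either strand, in the 250 bases before each start in RefSeq (GRCh38.p14). A promoter was listed for 31 of the 36 members. The core was present for 7 of these 31 genes (22.6%), namely PSMA4, PSMB3, PSMC5, PSMD3, PSMD5, PSMD9 and PSMD12. Counted over promoters, since a gene can have more than 1 start, 7 of 37 (18.9%) held it, against 10.9% of all 35116 listed promoters. The box CCAAT, searched on both strands, was found for 16 of the 31 members (16 of 37 promoters, 43.2%, against 32% of all promoters) and shared bases with the antioxidant core at 0 places. The amino acid response core TGATGNAA, also on both strands, was found for 0 of the 31 (3.14% of all promoters). The following stretches show the antioxidant core in capitals with its flanks, 5′ to 3′ on the strand of the gene, for a beta ring gene and 3 PSMD genes. PSMB3 and PSMD12 are shown because they passed the test after recovery from 50 µM PFOS in the fit on all libraries. Neither did so in every alternative fit, and PSMD12 did in fewer of them than PSMB3. PSMD3 and PSMD5 are shown because they did not pass in the fit on all libraries, as described further on.
PSMB3 (chr17:38752607-38752675, plus strand): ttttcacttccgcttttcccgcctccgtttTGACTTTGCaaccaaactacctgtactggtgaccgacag
PSMD12 (chr17:67366704-67366772, minus strand): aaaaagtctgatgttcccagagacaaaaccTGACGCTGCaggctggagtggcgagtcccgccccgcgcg
PSMD3 (chr17:39980740-39980806, plus strand): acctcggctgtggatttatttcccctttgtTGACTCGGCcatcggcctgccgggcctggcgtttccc
PSMD5 (chr9:120843018-120843086, minus strand): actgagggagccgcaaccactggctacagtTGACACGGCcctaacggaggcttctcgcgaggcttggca
In PSMB3 the last base of the core lies 96 bases before the start of transcription, in PSMD12 157, in PSMD3 29 and in PSMD5 126. A match is a description of the letters and not a site shown to be used.

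Of the 36 members, 34 passed the low-count filter and were tested: 7 PSMA, 7 PSMB, all 6 PSMC and all 14 PSMD genes. PSMA8, an alpha subunit of the testis, had 0 counts in every library, and PSMB11, the beta subunit of the thymus cortex, had 2 counts in all. The lowest count of a tested member in any library was 20, for PSMB4, so none of the 34 passed through 1 group alone. PSMD5, PSMD9 and PSMD10 carry a subunit name but encode chaperones of 19S assembly that leave the finished particle. Conversely, the 19S subunits SEM1 (listed as SHFM1) and ADRM1 fall outside the naming rule and are given with the companion genes. Levels are in CPM, which are counts relative to the library size after scaling by composition. They are compared between groups for 1 gene, and not between genes, since transcript lengths were not used.

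Total counts ranged from 582233 to 4346627 per library. The 3 libraries of 50 µM PFOS after recovery stood apart from the rest and from each other. Across the 34 members, Pearson's r of log2 CPM was 0.739 between libraries 1 and 2 of that group, 0.940 between 1 and 3 and 0.889 between 2 and 3, against 0.965 or more for every other pair within a group. Of the counts in these libraries, 86 ribosomal protein genes accounted for 2.94%, 7.58% and 5.03%, against 1.21% to 2.43% in the other 15. Results for this group are therefore given library by library and with libraries left out. The defining microglia markers AIF1, CX3CR1, C1QA, TYROBP and SALL1 had 0 counts in all 18 libraries. In bulk RNA, fewer cells of a type and less RNA per cell cannot be told apart.

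Directly after 24 h of 25 µM PFOS, 0 of the 34 proteasome transcripts passed the test against vehicle. Among all genes 0.782% were higher and 0.457% lower (edgeR quasi-likelihood test, Benjamini-Hochberg adjustment over 9847 genes, threshold 0.05, as throughout). The unadjusted p was under 0.05 for 0 members, and DESeq2 and voom with library weights also called 0. A fit on only the 6 libraries compared called 1, PSMD2 (0.34 ± 0.10, edgeR adjusted p = 0.0457). The members' median log2 change was -0.13 (range -0.28 to 0.33), beside -0.004 for all genes. By family the medians were -0.17 for PSMA, -0.14 for PSMB, -0.07 for PSMC and -0.12 for PSMD. The libraries of treated and vehicle cells did not overlap for 2 members that were higher and 9 that were lower, against backgrounds of 11.4% and 11.5% of all genes.

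PSMD2, which forms part of the base and docks ubiquitin receptors, had the smallest p. Its CPM was 1394, 1571 and 1564 in vehicle and 1850.1, 2096 and 1748 in 25 µM PFOS, without overlap (log2 change 0.33 ± 0.16 SE, edgeR adjusted p = 0.569). The base ATPase PSMC1 had 55.3, 73.5 and 58.6 CPM in vehicle and 51.9, 49.4 and 54.7 in 25 µM PFOS, also without overlap (-0.28 ± 0.19, edgeR adjusted p = 0.749). Neither difference passed the test in the fit on all libraries.

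After 24 h of 50 µM PFOS, 3 of 34 members were called lower and 0 higher in the fit on all libraries, and all 3 were PSMD genes, beside 9.18% of all genes higher and 9.59% lower. This count depended on the fit. On only the 6 libraries compared, 8 were lower, with PSMA2, PSMA4, PSMC1, PSMC2 and PSMC3 added to the 3, and 2 higher, PSMB6 and PSMD2. Voom with library weights added PSMD12 to these, for 9 lower and 2 higher. The shares of all genes above are those of the fit on all libraries. Shares for these 2 fits are not given, so their counts have no background here. Medians of the log2 change were -0.07 for the members and 0.0053 for all genes. The family medians were -0.14 for PSMA, 0.12 for PSMB, -0.29 for PSMC and -0.11 for PSMD. Without overlap between the libraries, 3 members were higher and 9 lower, against 20.3% and 21.1% of all genes.

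PSMD1 (chr2:231056867-231172827), the scaffold of the 19S base, showed the smallest p. It had 532, 599 and 544 CPM in vehicle, 506, 503 and 498 in 25 µM PFOS and 334, 303 and 355 in 50 µM PFOS. The 50 µM libraries were all below the other 6. The log2 change against vehicle was -0.75 ± 0.12 (edgeR adjusted p = 0.000131), and the call stood in all 14 alternative fits. Between the doses PSMD1 was also lower in 50 than in 25 µM PFOS, by -0.60 ± 0.12 (edgeR adjusted p = 0.00334). In the fit on all libraries 1 of the 34 members, PSMD1, was called between the doses at 24 h, where 3.79% of all genes were higher and 3.62% lower in 50 µM PFOS. DESeq2 and the fit with no low-count filter called PSMB6 as well, 2 in all. Voom with library weights called 4, and the fit on only the libraries compared called 6. The shares of all genes for these fits are not given.

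PSMD5, the 19S chaperone whose upstream sequence is printed above, had 254, 240.0 and 225 CPM in vehicle and 174, 182 and 177 in 50 µM PFOS. It was lower in each treated library, with a log2 change of -0.43 ± 0.13 (edgeR adjusted p = 0.0213). The lid subunit PSMD11 went from 163, 238 and 221 CPM to 134, 135 and 150.4 (-0.58 ± 0.18, edgeR adjusted p = 0.0252). Again the groups did not overlap, but the lowest vehicle library of PSMD11 was close to the highest treated one. PSMD5 lost its call in 7 of 14 alternative fits and PSMD11 in 4, most of them fits that leave out 1 library.

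The catalytic subunits did not pass the test at 24 h in the fit on all libraries. PSMB6 came nearest, with 459.8, 284 and 381 CPM in vehicle and 549.6, 741 and 469 in 50 µM PFOS (0.65 ± 0.23, edgeR adjusted p = 0.0564). Its vehicle libraries were widely spread, and the lowest treated library was just above the highest vehicle one. The fits with no low-count filter, without library 1 of vehicle and without library 3 of 50 µM PFOS also called PSMB6 higher. PSMB5 had 226, 237 and 267 CPM in vehicle and 259.8, 302 and 241 in 50 µM PFOS (0.13 ± 0.17). PSMB7 had 94.1, 114 and 108 CPM in vehicle and 127, 125 and 100.4 in 50 µM PFOS (0.14 ± 0.23). Both groups overlapped for these 2 genes. PSMD2 again lay above vehicle in each library, at 2091, 1835 and 2274 CPM, without passing the test in that fit (0.45 ± 0.16, edgeR adjusted p = 0.0535). DESeq2, its size factors in edgeR, thinned counts and the fit without library 2 of 50 µM PFOS also called PSMD2 higher. All 8 lid genes had a value below 0, from -0.58 to -0.03, and PSMD11 was the 1 of them called in the fit on all libraries.

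**Figure D1:**
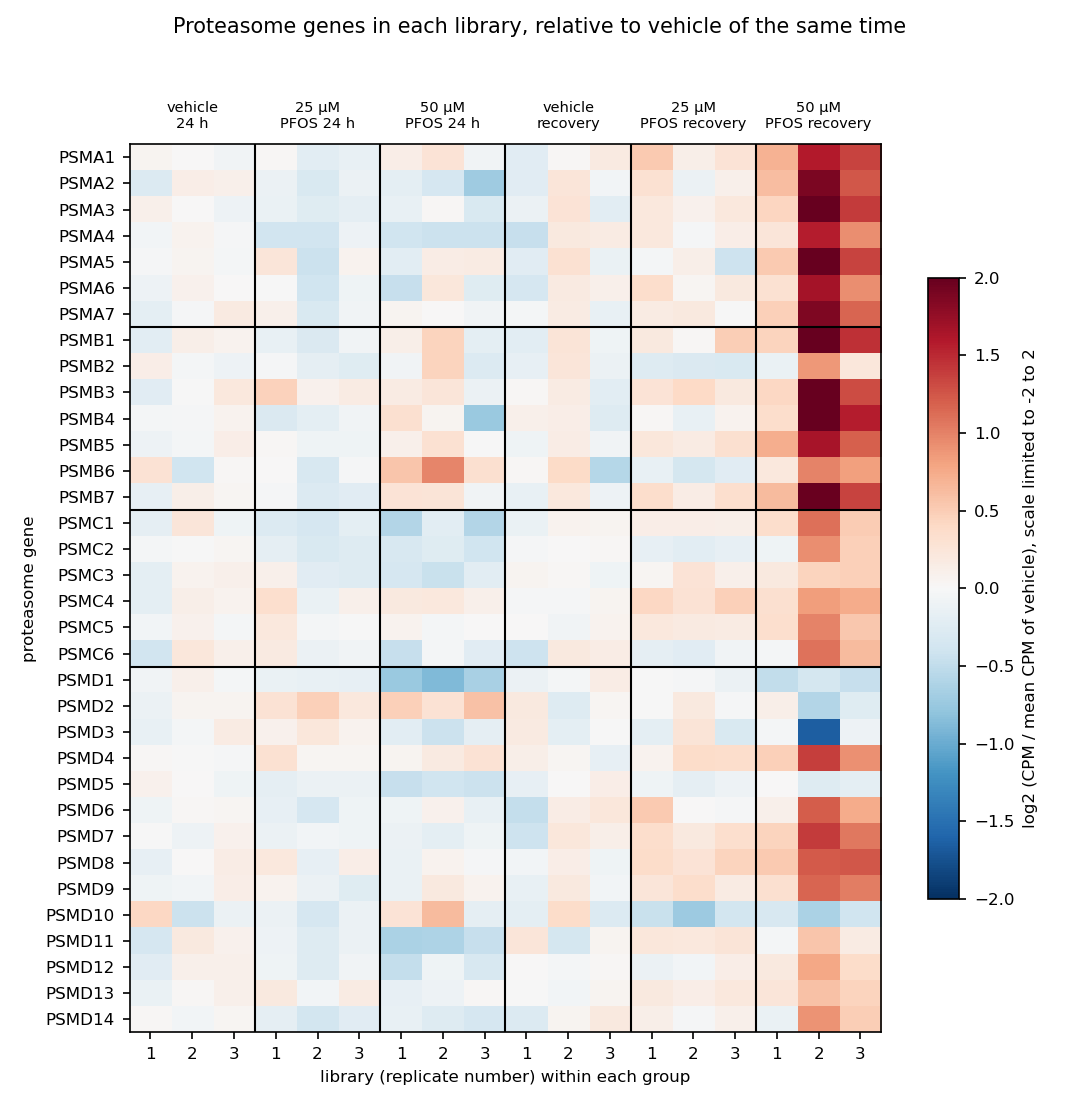
Log2 ratio of CPM to the mean of the vehicle libraries of the same time for the 34 tested genes (rows, by family) in the 18 libraries (columns, 3 per group). Red cells are above vehicle and blue cells below; libraries 2 and 3 of 50 µM PFOS after recovery are red across PSMA, PSMB and PSMC, library 1 less so, and PSMD1 is blue in all 6 libraries of 50 µM PFOS.

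After recovery from 25 µM PFOS, 0 of 34 members passed the edgeR test, and 0% of all genes were called higher and 0% lower. Of the members 2 had an unadjusted p under 0.05, and DESeq2 called 0. The members' median was 0.14, with 0.12 for PSMA, 0.23 for PSMB, 0.13 for PSMC and 0.11 for PSMD, beside -0.0013 for all genes. Libraries did not overlap for 7 members that were higher and 3 that were lower (6.89% and 6.92% of all genes). The ATPase PSMC4 had the smallest p, with 112, 112 and 118 CPM in vehicle and 153, 139 and 159 after 25 µM PFOS (0.39 ± 0.16, edgeR adjusted p = 0.629). PSMD10, known as gankyrin, followed with 1002, 1482 and 950.2 CPM in vehicle and 842, 694 and 888 after 25 µM PFOS (-0.51 ± 0.22, edgeR adjusted p = 0.644). Each library lay beyond the vehicle libraries in both genes, by margins that did not pass the test.

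After recovery from 50 µM PFOS, 26 of the 34 members were higher than in vehicle and 1 was lower. Among all genes, 17.7% were higher and 10.7% lower. The members' median log2 change was 0.73, beside -0.05 for all genes. By family the medians were 1.28 for PSMA (7 of 7 higher), 1.42 for PSMB (6 of 7 higher), 0.64 for PSMC (6 of 6 higher) and 0.45 for PSMD (7 of 14 higher and 1 lower). Without overlap between the 3 and 3 libraries, 22 members were higher and 2 lower, against 17.2% and 14.1% of all genes.

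These counts rested largely on 2 libraries. Over the members, the median log2 ratio to vehicle was 0.31 in library 1, 1.13 in library 2 and 0.79 in library 3. Library 1 on its own, with the spread taken from the other groups, left 2 members called, PSMA1 and PSMB5, both higher, and a median of 0.29. Without library 2, the library farthest from vehicle, 19 members were called, 18 higher and 1 lower. In a fit on the 6 libraries of this comparison alone, 13 were called, all higher. The order of the libraries was the same as for the share of ribosomal protein genes (2.94%, 7.58% and 5.03%), which have short transcripts, and its part in the result was not tested.

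**Figure D2:**
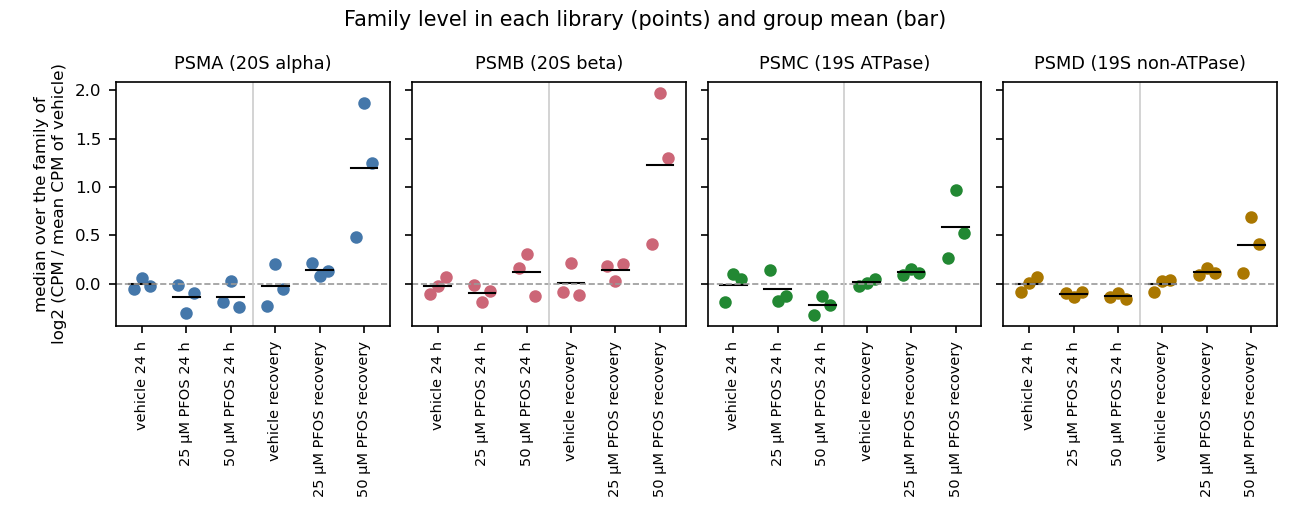
Median log2 ratio to vehicle over the tested genes of each family (y axis) in each library (points, in the order 1 to 3) of the 6 groups (x axis), with the mean of the 3 libraries as a bar. After recovery from 50 µM PFOS the 3 points run from 0.48 to 1.86 for PSMA, 0.41 to 1.97 for PSMB, 0.26 to 0.96 for PSMC and 0.11 to 0.69 for PSMD, and in each family all 3 lie above the vehicle points of that time.

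The alpha ring moved as a block after recovery from 50 µM PFOS, though less far in library 1. With library 1 alone the family median of the log2 change was 0.47, against 1.28 with all libraries. On only the libraries compared, PSMA4 and PSMA6 lost their calls. The 7 tested genes had log2 changes between 1.01 (PSMA4) and 1.45 (PSMA3), and in all 7 the 3 treated libraries were above the 3 vehicle libraries. PSMA1 (chr11:14504876-14643662) had 133, 157 and 177 CPM in vehicle and 252, 466 and 396 after 50 µM PFOS. Library 1 was already above the highest vehicle library, and the log2 change was 1.25 ± 0.19 (edgeR adjusted p = 5.98e-05). PSMA1 kept its call in all 15 alternative fits. PSMA7, another alpha subunit of the ring, had 417, 482 and 388 CPM in vehicle and 598, 1559.7 and 964 after 50 µM PFOS (1.28 ± 0.22). In library 2 this was more than in any other library, as it was for each of the 7 alpha genes.

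In the beta ring the log2 changes ran from 0.39 (PSMB2) to 1.60 (PSMB3). The structural subunits PSMB1, PSMB3 and PSMB4 changed by 1.53 ± 0.28, 1.60 ± 0.30 and 1.51 ± 0.29. PSMB1 and PSMB3 lost their calls only with library 1 alone, and PSMB4, which spans 2365 bp, also when the trend with gene span was removed. The catalytic PSMB5 (chr14:23025851-23035220) had 246, 289 and 250.4 CPM in vehicle, 305, 293 and 328 after 25 µM PFOS and 431, 818 and 597 after 50 µM PFOS. Its 50 µM libraries lay above the other 6, with a log2 change of 1.23 ± 0.17 (edgeR adjusted p = 4.05e-05), the smallest p of the 34 members, and its call held in all 15 alternative fits. Catalytic PSMB7 (chr9:124353465-124415442) had 83.5, 107 and 86.0 CPM in vehicle and 143, 363 and 235 after 50 µM PFOS. It was higher in each library (1.42 ± 0.23, edgeR adjusted p = 0.000123), and its call was lost only with library 1 alone.

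PSMB6, the third catalytic subunit, had 479.5, 617 and 318 CPM in vehicle and 543, 933 and 836 after 50 µM PFOS, and library 1 was below the highest vehicle library. The log2 change of 0.71 ± 0.23 passed the test (edgeR adjusted p = 0.0266), but the call was lost in 7 of 15 alternative fits. The value turned to -0.07 when the trend of log2 CPM with gene span was removed. PSMB6 spans 2332 bp, and short genes were higher in this comparison, as described with gene span. PSMB2, a structural beta subunit, had 255, 338 and 265 CPM in vehicle and 262, 522 and 336 after 50 µM PFOS. These groups overlapped, and 0.39 ± 0.21 did not pass the test (edgeR adjusted p = 0.168).

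All 6 ATPases of the 19S base were called higher in the fit on all libraries, by 0.38 (PSMC3) to 0.70 (PSMC1) on the log2 scale, and 0 of these 6 calls held in all 15 alternative fits. On only the libraries compared and with library 1 alone 0 of the 6 were called, and 2 were called without library 2 or with the span trend removed. The largest of these changes was smaller than that of 13 of the 14 tested 20S genes, all but PSMB2. PSMC5 had 287, 272 and 301 CPM in vehicle and 362, 570.3 and 418 after 50 µM PFOS (0.65 ± 0.15, edgeR adjusted p = 0.00211). Here every treated library was above every vehicle library. PSMC5 and PSMC1 each lost the call in 3 of 15 alternative fits and PSMC4 in 2. In PSMC2 and PSMC6 library 1 was below the vehicle mean, with library 1 alone their changes were -0.09 and -0.07, and they lost their calls in 9 and 8 fits. PSMC3 had the change closest to 0 of the 6 (0.38 ± 0.14, edgeR adjusted p = 0.0466), and 10 of 15 alternative fits lost its call, the fit with a replicate block among them (adjusted p = 0.0667).

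The PSMD genes divided. Higher were PSMD4, a ubiquitin receptor of the base (0.98 ± 0.18), the lid subunits PSMD6, PSMD7, PSMD8, PSMD12 and PSMD13 (0.43 to 1.03), and the chaperone PSMD9 (0.87 ± 0.18). PSMD12 lost its call in 8 of 15 alternative fits and PSMD6 and PSMD13 in 5 each, while PSMD4, PSMD7 and PSMD8 lost it only with library 1 alone. PSMD8 (chr19:38374571-38383824) had the smallest p among them, with 133, 151 and 129.5 CPM in vehicle and 198, 322 and 325 after 50 µM PFOS (1.03 ± 0.17, edgeR adjusted p = 0.000173). Its treated libraries were all above vehicle. PSMD14, the deubiquitinating enzyme of the lid, had 166, 208 and 229.8 CPM in vehicle and 184, 376 and 283 after 50 µM PFOS. Library 1 lay within the vehicle range, and 0.48 ± 0.19 did not pass the test (edgeR adjusted p = 0.0567), though DESeq2 and voom called it.

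PSMD1 was the 1 member that was lower. It had 459, 480.3 and 548 CPM in vehicle, 495, 488 and 458 after 25 µM PFOS and 353, 388 and 358 after 50 µM PFOS. All 50 µM libraries, library 1 included, were below the other 6, and the log2 change was -0.44 ± 0.12 (edgeR adjusted p = 0.0103). The call was lost in 3 of 15 alternative fits: on the compared libraries alone, with the gene-span trend removed and with library 1 alone. PSMD1 was thus below vehicle at both times at this dose, and the difference between the 2 changes, 0.32 ± 0.17, did not pass the test (edgeR adjusted p = 0.198).

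Another 4 PSMD genes had values below 0 without passing the test. PSMD2 had 1314, 959 and 1178 CPM in vehicle and 1245, 769.8 and 968 after 50 µM PFOS (-0.21 ± 0.16). The lid subunit PSMD3 had 133, 102 and 116 CPM in vehicle and 114, 37.4 and 108 after 50 µM PFOS (-0.45 ± 0.26), so that its value rests on library 2. PSMD10 was below vehicle in each library at 917, 734 and 872 CPM (-0.45 ± 0.22, edgeR adjusted p = 0.127). PSMD5 had 203, 227 and 249 CPM in vehicle and 227, 189 and 197 after 50 µM PFOS (-0.15 ± 0.13).

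Of the genes whose upstream sequence is printed, PSMB3 and PSMD12 were higher after recovery (1.60 ± 0.30 and 0.47 ± 0.16), while PSMD3 and PSMD5 were not called. The call of PSMD12 was not stable, since leaving out any 1 vehicle library ended it. Among the 7 members with the antioxidant core, the log2 changes at this comparison ran from -0.45 (PSMD3) to 1.60 (PSMB3). Of the 7, 5 were called higher, beside 26 of all 34 tested. The 26 include PSMA7, PSMB1, PSMB6, PSMB7 and PSMD4, for which no promoter was listed, so whether they hold the core is unknown.

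**Figure D3:**
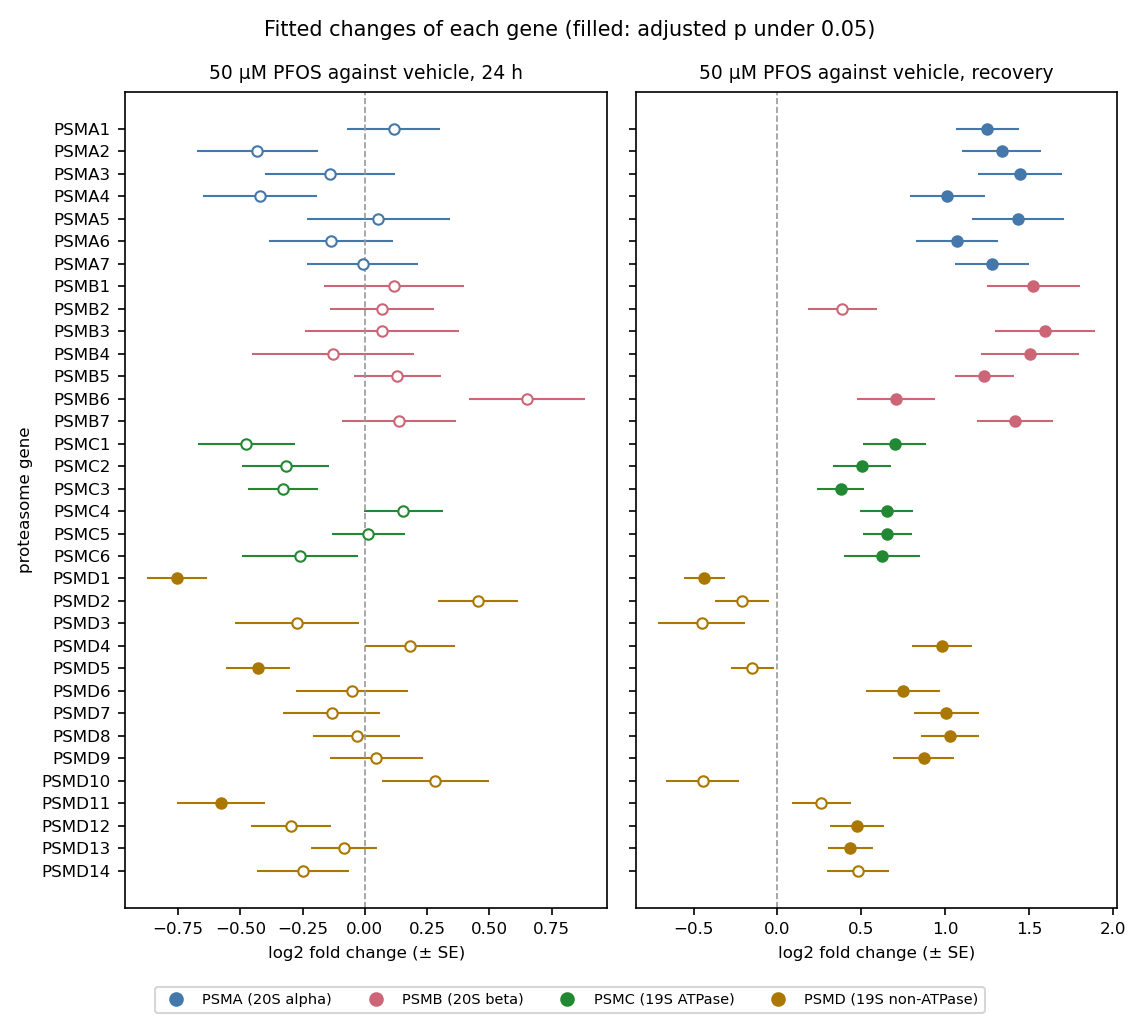
Log2 fold change ± SE (x axis) of each tested gene (y axis) for 50 µM PFOS against vehicle at 24 h (left) and after recovery (right), coloured by family, with filled points past the adjusted threshold of 0.05; the 2 panels have their own x scales. At 24 h only PSMD1, PSMD5 and PSMD11 are filled, all below 0; after recovery 26 filled points lie above 0, with PSMA and most PSMB above 1, and PSMD1 lies below 0.

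Against 25 µM PFOS after recovery, 23 members were higher in 50 µM PFOS and 1, PSMD1, was lower, while 14.7% of all genes were higher and 7.38% lower. The 23 were all 7 PSMA genes, all 7 PSMB genes, 4 of 6 PSMC genes and 5 of 14 PSMD genes. PSMB5 had the smallest p, with a change of 1.00 ± 0.18 (edgeR adjusted p = 0.000759). This comparison uses the same 50 µM libraries as the comparison with vehicle. In a fit on the 6 compared libraries alone, and with library 1 alone for 50 µM PFOS, 0 members were called. Without library 2, 12 were called, and without library 2 of 25 µM PFOS, 13.

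Whether the effect after recovery differed from that at 24 h was tested directly. For 50 µM PFOS it was called for 23 members, 22 with the recovery effect higher and 1 (PSMD2, -0.66 ± 0.23, edgeR adjusted p = 0.0462) with it lower, against 11.6% and 7.42% of all genes. The call of PSMD2 was lost in 13 of 21 alternative fits, the replicate block among them, as were those of PSMC5 in 14, PSMD9 in 11 and PSMD4 in 10. All 7 PSMA genes were among the 22, with differences from 1.14 (PSMA1) to 1.77 (PSMA2). PSMA2 had 91.7, 122 and 119 CPM in vehicle and 97.3, 87.6 and 67.8 in 50 µM PFOS at 24 h, and 88.9, 123 and 101 in vehicle and 159, 385 and 247 in 50 µM PFOS after recovery. It thus lay within or below the vehicle range at 24 h and above it after recovery (difference 1.77 ± 0.34, edgeR adjusted p = 0.00192), and it alone kept this call in all 21 alternative fits, library 1 alone among them. PSMD11, lower at 24 h, had 209.9, 139 and 184 CPM in vehicle and 173, 259.6 and 199 in 50 µM PFOS after recovery, where its groups overlapped (difference 0.84 ± 0.25, edgeR adjusted p = 0.0239). With library 1 alone 1 member was called, PSMA2. For 25 µM PFOS the difference was called for 0 members by edgeR and by DESeq2, with 0 at an unadjusted p under 0.05, as for 0% of all genes higher and 0.0203% lower.

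Vehicle cells themselves did not differ detectably in these genes between the times. The edgeR test called 0 of the 34 and DESeq2 0, and 1, PSMD2, had an unadjusted p under 0.05 (0.335% of all genes were higher after recovery and 0.64% lower), and the median was -0.07. The summed level of the 34 genes was 8456 to 8742 CPM in vehicle at 24 h and 7845 to 8745 in vehicle after recovery. It was 9064, 14707 and 11662 CPM in libraries 1, 2 and 3 of 50 µM PFOS after recovery. The sum for PSMA was 1046 to 1361 CPM in vehicle after recovery and 1652, 4140 and 2690 in these. That for PSMD was 4379 to 4606 in vehicle and 4413, 4786 and 4673. Such sums weigh the genes of highest CPM most, for PSMD these being PSMD2, PSMD10 and PSMD1. Their means were 1150, 1145 and 496 CPM in vehicle after recovery and 994, 841 and 367 after 50 µM PFOS, only PSMD1 being called lower. The PSMD sum therefore does not show the 7 of 14 PSMD genes called higher.

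**Figure D4:**
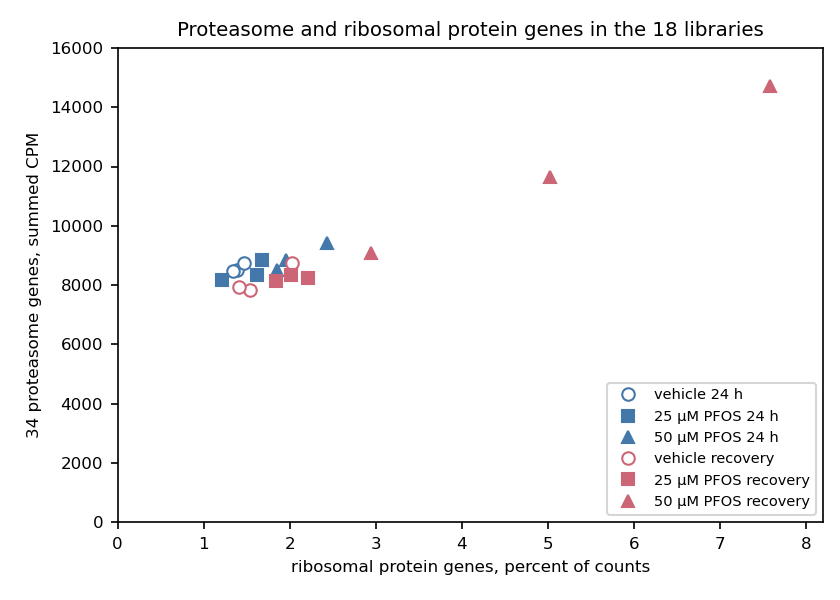
Summed CPM of the 34 tested proteasome genes (y axis) against the percent of counts in 86 ribosomal protein genes (x axis) in the 18 libraries, with groups by marker. Of the 18 points, 15 lie between 1.21% and 2.43%, and the 3 libraries of 50 µM PFOS after recovery lie at 2.94%, 7.58% and 5.03%, with the 2 highest sums at the 2 highest shares.

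Gene span, the distance from the start to the end of a gene in RefSeq, was set beside the change, because short genes were higher after recovery from 50 µM PFOS. Across 9806 genes, which are not independent replicates, Spearman's rho between the log2 change and span was -0.31. Across the 34 members it was -0.10. Median spans were 27162 bp for PSMA, 11485 bp for PSMB, 14738.5 bp for PSMC, 16581 bp for PSMD and 31870.5 bp for all genes tested. PSMA1, with a span of 138787 bp, changed by 1.25, and PSMD1, with 115961 bp, by -0.44. When the trend with span was removed in each library, 20 members were called, 19 higher and 1 lower. These were not all the same genes: 18 of the 26 higher calls were kept, PSMB4, PSMB6, PSMC2, PSMC3, PSMC5, PSMC6, PSMD6 and PSMD13 were lost, and PSMD14 was added. The lower call of PSMD1 was lost and PSMD10 was called lower. The family medians were then 1.16 for PSMA, 0.97 for PSMB, 0.43 for PSMC and 0.40 for PSMD.

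**Figure D5:**
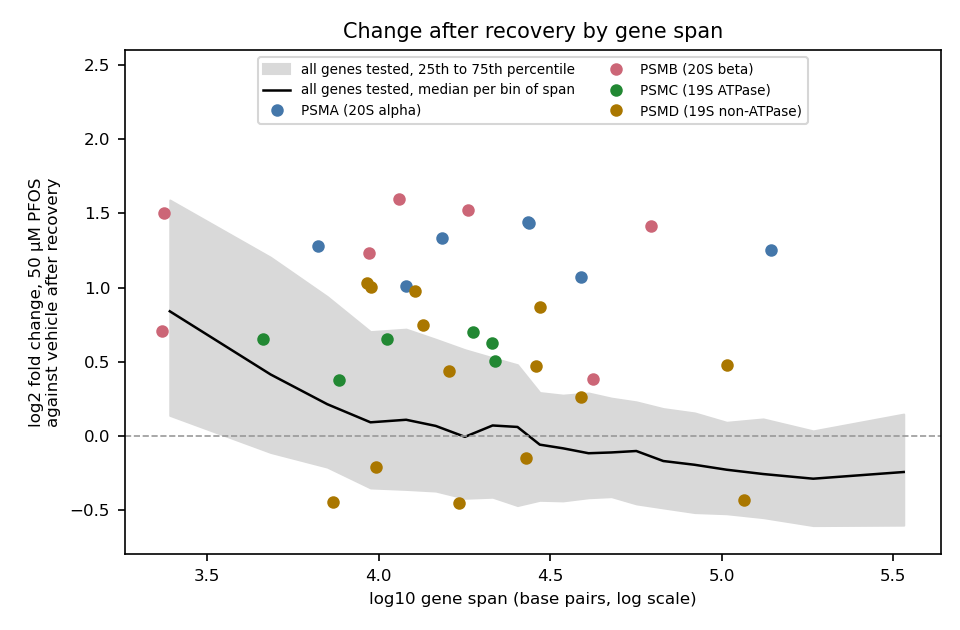
Log2 fold change of 50 µM PFOS against vehicle after recovery (y axis) against log10 gene span (x axis, base pairs) for the 34 tested proteasome genes (points, by family), with the median (line) and the 25th to 75th percentiles (band) of all genes tested in bins of span. The line falls with span, and 7 of 7 PSMA points and 5 of 7 PSMB points lie above 1 at spans from short to long.

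The other genes of the pathway were taken from lists, whose counts stand beside 17.7% of all genes higher and 10.7% lower after recovery from 50 µM PFOS. The 3 inducible beta subunits, which replace the catalytic ones in the immunoproteasome, were all higher after recovery from 50 µM PFOS (median 1.38). PSMB8 had 16.9, 22.0 and 18.3 CPM in vehicle and 15.1, 81.1 and 52.8 after 50 µM PFOS (1.38 ± 0.33, edgeR adjusted p = 0.00401). PSMB9 had 10.7, 8.65 and 11 CPM in vehicle and 10.5, 47.4 and 20.8 (1.45 ± 0.43). PSMB10 had 26.0, 27 and 20.1 CPM in vehicle and 25.6, 49.2 and 47.2 (0.74 ± 0.25). In all 3 genes library 1 lay below the highest vehicle library, and the values above vehicle were those of libraries 2 and 3. None of the 3 was called in the other comparisons with vehicle.

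Of 7 tested genes of 20S and 19S assembly, 6 were higher after recovery from 50 µM PFOS (median 1.24) and 0 were called in any other comparison with vehicle. POMP, which brings beta subunits together and is removed when the core matures, had 49.8, 61.6 and 47.6 CPM in vehicle and 105, 337 and 204 after 50 µM PFOS. It was above vehicle in each library (2.02 ± 0.29, edgeR adjusted p = 5.23e-05). PSMG4, a chaperone of alpha ring assembly, had 10.7, 9.7 and 5.95 CPM in vehicle and 26.7, 79.3 and 55.6 (2.64 ± 0.31), also without overlap. PSMG2 and PSMG3 changed by 1.24 ± 0.29 and 1.68 ± 0.41.

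Among 5 tested genes of other 19S subunits and bound enzymes, the small lid subunit SHFM1 was called (2.70 ± 0.41, edgeR adjusted p = 7.37e-05). It had 27.6, 34.6 and 33.0 CPM in vehicle and 62.8, 405 and 149 after 50 µM PFOS, with library 2 far above the other 2 treated libraries. The ubiquitin receptor ADRM1 had 257, 223 and 179 CPM in vehicle and 295, 216 and 351 after 50 µM PFOS and was not called (0.39 ± 0.18). Of 5 activators and inhibitors, PSME1 and PSME2, the subunits of the 11S cap, were higher (0.68 ± 0.24 and 1.59 ± 0.25). Library 1 of PSME1 lay within the vehicle range (352 CPM, vehicle 228 to 404), and that of PSME2 lay above it (151, vehicle 83.3 to 111).

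Of 7 tested regulators of proteasome genes, 0 were called by edgeR after recovery from 50 µM PFOS and 0 had an unadjusted p under 0.05. Their lowest adjusted p was 0.134 and their median -0.04. NFE2L1 had 47.5, 27 and 20.6 CPM in vehicle and 25.6, 9.11 and 22.2 after 50 µM PFOS (-0.73 ± 0.36). NFE2L2 had 103, 108 and 131 CPM in vehicle and 127, 121 and 114 (0.08 ± 0.15). Both factors are controlled mainly at the level of the protein, which was not measured. At 24 h of 50 µM PFOS 2 of the 7 were called higher (9.18% of all genes), the small MAF partners MAFF (1.26 ± 0.34) and MAFG (0.96 ± 0.34). MAFG was low and its groups overlapped, at 8.23, 16.6 and 9.13 CPM in vehicle and 23.8, 11.9 and 30.6 in 50 µM PFOS.

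Ubiquitin supply and ER-associated degradation, which feed the proteasome, were called at 24 h as well. At 24 h of 50 µM PFOS, 5 of 14 tested genes of ER-associated degradation were higher and 0 lower (9.18% and 9.59% of all genes), with HERPUD1 (1.93 ± 0.14), DERL3 (2.59 ± 0.22), SYVN1 (1.65 ± 0.24) and AUP1 (0.65 ± 0.14) having the smallest p. After recovery 3 of 14 were higher, a share close to the 17.7% of all genes. HERPUD1 and DERL3 were also higher at 24 h of 25 µM PFOS (0.81 ± 0.14 and 1.42 ± 0.22). The polyubiquitin gene UBB was higher at 24 h of 50 µM PFOS (0.57 ± 0.19). After recovery from 50 µM PFOS RPS27A (2.28 ± 0.33), which encodes ubiquitin fused to a ribosomal protein, and UBB (1.35 ± 0.19) were higher. Both were above vehicle in each library. RPS27A is also 1 of the 86 ribosomal protein genes whose share of counts was highest in these libraries. UBA1, the main E1 enzyme, was lower (-0.89 ± 0.29). It had 498, 431 and 449 CPM in vehicle and 393, 83.8 and 271 after 50 µM PFOS, with library 2 far below the others. Among 9 tested shuttle factors and genes of the p97 complex, UFD1L and NSFL1C were higher after recovery (0.77 ± 0.23 and 0.55 ± 0.15). VCP and UBQLN2 were lower (-0.52 ± 0.19 and -0.68 ± 0.22). Library 1 lay within the vehicle range in UFD1L (113 CPM, vehicle 87.3 to 119), VCP (929, vehicle 828 to 1065) and UBQLN2 (65.1, vehicle 62.6 to 82.7). In NSFL1C library 1 was above vehicle (138 CPM, vehicle 102 to 121).

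Markers of other cell types were set beside these results. Of 10 fibroblast and mesenchymal markers, 7 were tested. COL1A1, COL1A2, FN1 and PDGFRB were lower and S100A6 higher after recovery from 50 µM PFOS. At 24 h of 50 µM PFOS 4 of the 7 were already called lower and 0 higher (median -0.94), beside 9.59% and 9.18% of all genes. The summed level of the 10 markers was 12973 to 17706 CPM in vehicle after recovery and 4734 to 12673 after recovery from 50 µM PFOS. Most of this sum was FN1, with means of 12237 and 6252 CPM. Library 1 of FN1, at 10069 CPM, lay within the vehicle range (9985 to 14184). COL3A1 had 0 counts in all libraries. Their part in the proteasome result was not tested.

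Several members share sequence or position with other genes. PSMC1 has 13 pseudogenes named in RefSeq and PSMA6 and PSMD7 have 4 each, and 0 of the members' pseudogenes are rows of the table, so how such reads were counted is unknown and these levels are uncertain. By position PSMB7, PSMC1, PSMC2, PSMC5, PSMD1, PSMD6 and PSMD10 overlap another gene. Smart-seq2 libraries give no strand, so reads in the overlapping stretches cannot be assigned by strand. PSMD1 overlaps HTR2B, which lies within it.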

How the data were processed

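HMC3 cells of 6 groups, 3 libraries each, were profiled by RNA-seq, and 18 H3K27ac CUT&Tag samples of the series were not analysed here. Per the labels' protocols, TRIzol RNA went into Smart-seq2 libraries with poly(A) selection and paired-end sequencing. Smart-seq2 gives neither molecular identifiers nor strand, so reads are not independent molecules. The values are whole-number counts of each symbol in a single table that the authors deposited without normalization. The submitters' processing notes name Trimmomatic, STAR, DESeq2, MACS2 and the builds GRCh38 and hg38. Tool versions, the counting program, its annotation and whether it used strand are not given in the sources. Library totals ran from 582233 to 4346627 counts, and such shallow libraries limit the precision for weakly expressed members.

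The counts were tested with edgeR (4.0.16, R 4.3.3): filterByExpr with a minimum count of 10 kept 9847 genes holding 99.2% of the counts, libraries were scaled by TMM, and all 18 libraries entered 1 quasi-likelihood fit with a mean for each group. SE is the log2 change divided by the root of F. P-values are two-sided and adjusted over all genes tested, and called means an adjusted p under 0.05. Group comparisons share libraries: 25 and 50 µM PFOS share vehicle, and both 50 µM recovery comparisons share the treated libraries. The members, lists and rules were chosen with earlier results of these data known. By the rule for names, every member may be named, with values per library for the catalytic subunits and, in each comparison with vehicle, for up to 4 called members of smallest adjusted p or, with 0 called, the 2 of smallest p. Per-library values of PSMA2, PSMA7, PSMB2, PSMC5, PSMD2, PSMD3, PSMD14 and of PSMD5 and PSMD11 after recovery were added after their values were seen. The same holds for PSMG4, SHFM1, the inducible subunits, PSME1, PSME2, MAFG, UBA1, UFD1L, NSFL1C, VCP, UBQLN2, COPS4, COPS5, COPS6 and FN1. Companion genes come from lists, with at most 4 called genes named per list and comparison. Some genes of the ubiquitin and marker lists, and counts or sums over those lists, are not reported here. Alternatives were DESeq2 1.42.0, its size factors in edgeR, limma 3.58.1 voom with library weights, other filters, samples, depths and blocks, and removal of the trend with gene span. Spans, overlaps and promoters come from RefSeq on GRCh38.p14.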

Additional observations from a re-analysis of the deposited data

Results flagged for a closer look

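For 50 µM PFOS the effects after recovery and at 24 h were compared by a test of the difference itself (edgeR, adjusted over all genes). They differed in 23 of the 34 tested proteasome genes. Among all genes, the recovery effect was higher for 11.6% and lower for 7.42%. The differences, recovery effect minus 24 h effect on the log2 scale, were in the alpha ring 1.14 for PSMA1, 1.77 for PSMA2, 1.59 for PSMA3, 1.43 for PSMA4, 1.38 for PSMA5, 1.21 for PSMA6 and 1.29 for PSMA7. In the beta ring they were 1.41 for PSMB1, 1.53 for PSMB3, 1.63 for PSMB4, 1.10 for PSMB5 and 1.28 for PSMB7. Among the ATPases they were 1.17 for PSMC1, 0.82 for PSMC2, 0.71 for PSMC3 and 0.64 for PSMC5. Among the PSMD genes they were 0.80 for PSMD4, 1.14 for PSMD7, 1.06 for PSMD8, 0.83 for PSMD9, 0.84 for PSMD11 and 0.77 for PSMD12. In PSMD2 the difference had the opposite sign, at -0.66, and this call was lost in 13 of 21 alternative fits, among them the one with a replicate block. PSMC5 lost its call in 14 of the 21. With library 1 as the only library of 50 µM PFOS after recovery, PSMA2 was the only one of these 23 that was still called.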

How the results depend on the processing

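Counts of called members changed by more than 1.5 times in these fits, and the cause was not tested. The shares of all genes called in these fits are not given, so the counts have no background beside them. With only the libraries compared, they were 1 for 25 µM PFOS at 24 h, 10 for 50 µM PFOS at 24 h (2 higher, 8 lower), 13 for 50 µM PFOS after recovery, 6 for 50 against 25 µM PFOS at 24 h, 0 for the same after recovery and 12 for the difference between the 50 µM effects. With voom and library weights, 11 were called for 50 µM PFOS at 24 h (2 higher, 9 lower) and 4 for 50 against 25 µM PFOS at 24 h. For the latter DESeq2 and the fit with no low-count filter each called 2. With 50 µM PFOS recovery library 1 alone, a fit chosen after seeing the data in which the lone library is assumed to vary like the other groups, the counts were 2 against vehicle, 0 against 25 µM PFOS and 1 for the difference between the effects.

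Leaving out 1 library at a time gave 1 to 3 called for 50 µM PFOS at 24 h, 19 to 31 after recovery, 1 to 2 and 12 to 28 for 50 against 25 µM PFOS at 24 h and after recovery, and 14 to 28 for the difference between the 50 µM effects. The count of 1 for 50 µM PFOS at 24 h came without library 2 of vehicle or library 1 of 50 µM PFOS. That of 14 for the difference came without library 3 of vehicle or of 50 µM PFOS at 24 h, and leaving out library 1 of 50 µM PFOS at 24 h gave 15. Family medians ranged over the same fits from 0.093 to 0.173 for PSMC and 0.067 to 0.178 for PSMD after 25 µM PFOS and recovery, and from 0.375 to 0.787 for PSMC and 0.238 to 0.558 for PSMD after 50 µM PFOS and recovery, the lowest of the latter without library 2 of 50 µM PFOS.

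Signs turned in values that lay near 0: PSMB5 for 25 µM PFOS at 24 h was 0.077 with thinned counts and ran from -0.089 to 0.024 with 1 library left out, PSMB6 in that comparison ran from -0.27 to 0.086 (0.0011 without library 2 of 25 µM PFOS) and after recovery from -0.47 to 0.022, and PSMB6 after 50 µM PFOS and recovery was -0.065 with the span trend removed. PSMC2 and PSMC6 there were -0.091 and -0.075 with library 1 alone. Replicate numbers are shared by the groups, but same-numbered libraries did not deviate together: correlations ran from -0.338 to 0.394, with 7 of 45 over 0.1, and 2 of 18 libraries correlated best with their own number. A fit with a replicate block gave 0, 3, 0 and 26 called for 25 and 50 µM PFOS at 24 h and after recovery, 1 and 24 between the doses, 0 and 21 for the differences between the effects and 0 for vehicle. Depth limits the low members, of which PSMB4 had as few as 20 counts in a library.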

Other observations

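Complexes outside the proteasome were set beside it from lists. The COP9 signalosome has a scaffold related to the 19S lid and removes the ubiquitin-like protein NEDD8 from cullin ligases. After recovery from 50 µM PFOS, 3 of its 9 tested genes were higher and 0 lower, beside 17.7% and 10.7% of all genes, namely COPS4 (0.66 ± 0.21), COPS5, the catalytic subunit (0.74 ± 0.24), and COPS6 (0.77 ± 0.16), with a median log2 change of 0.46. The CCT chaperonin, a ring of 8 related subunits that folds actin and tubulin, had 0 of 8 genes called by edgeR and 0 at an unadjusted p under 0.05 in the same comparison, with a median of 0.12 and a range of -0.004 to 0.24. At 24 h of 50 µM PFOS the edgeR test called 0 of 9 and 0 of 8 in these lists, with 2 in each at an unadjusted p under 0.05, all lower, and medians of -0.07 and -0.24. All these values rest on the same 50 µM libraries as those of the proteasome genes. After recovery from 50 µM PFOS, library 1 lay within the vehicle range in COPS4 (100 CPM, vehicle 75.8 to 104) and COPS5 (77.9, vehicle 65.9 to 88.3). In COPS6 library 1 was above vehicle (351 CPM, vehicle 270 to 313).

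Stress genes were taken as a reference. At 24 h of 50 µM PFOS 7 of 11 tested were higher (9.18% of all genes), HSPA5 (1.78 ± 0.11), TRIB3 (3.92 ± 0.26), ASNS (2.70 ± 0.20) and TXNRD1 (1.5 ± 0.15) with the smallest p. After recovery from 50 µM PFOS 2 of the 11 were higher, NQO1 (2.01 ± 0.17) and DDIT3 (1.86 ± 0.24). Lower was 1, DNAJB1 (-0.60 ± 0.18). These shares were close to the 17.7% and 10.7% of all genes.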
